A study of Homo sapiens with 6 samples.

Results

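The 38 integrin and laminin genes of the human genome were followed in HT29 cells kept for 48 h without histidine or without tryptophan. They were taken as every protein-coding gene in GENCODE release 44 whose symbol is that of an integrin alpha subunit (18 genes), an integrin beta subunit (8 genes), or a laminin alpha (5 genes), beta (4 genes) or gamma chain (3 genes), out of 60676 listed genes. HT29 is a colorectal adenocarcinoma line, wild type by its labels. One group stayed in control medium (untreated), one had medium lacking histidine (Hdepl) and one had medium lacking tryptophan (Wdepl), and polyadenylated RNA of 2 samples per group was sequenced. Whether the samples of a group were separate cultures is not given in the sources used here, so the p-values measure only the spread between these samples, which may be technical. The medium without histidine was an RPMI formulation and the medium without tryptophan a DMEM F-12 formulation, both with dialyzed serum, and that of the control cells sequenced is not given in the sources used here. Depletion and base medium therefore cannot be told apart.

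Integrins are receptors made of an alpha and a beta subunit that span the membrane and tie the cytoskeleton to the matrix outside the cell. Laminins are trimers of an alpha, a beta and a gamma chain and form the sheet of the basement membrane on which epithelial cells rest. In the gut epithelium, integrin alpha6beta4 holds the cell to laminin-332, which holds the LAMA3 and LAMB3 products, in hemidesmosomes, while alpha3beta1 binds the same laminin and alpha2beta1 binds collagen.

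Of the 38 genes, 28 had a mean of at least 10 normalized counts over the libraries of at least 1 comparison and were tested. The libraries held 46390819 to 64388876 reads, of which the integrin and laminin genes took 0.316% and 0.325% in untreated cells, 0.401% and 0.399% in Hdepl and 0.497% and 0.503% in Wdepl. Markers of intestinal epithelium were present, with 9 of 10 at 10 or more reads in every library, and their summed level ranged from 394766 to 420452 normalized counts in untreated, 565961 to 596965 in Hdepl and 572472 to 575301 in Wdepl libraries. KRT8, a keratin, made up much of the sum, at 186625 and 201539 in untreated cells and 320941 and 340439 in Hdepl. KRT19, KRT20, CDH1 and EPCAM were also higher in both Hdepl libraries than in both untreated ones, as KRT19 at 57635 and 62356 against 19836 and 21457. Other markers were lower in Hdepl, as KRT18 at 81036 and 86412 against 118089 and 123660, CDX2 at 181.6 and 172.0 against 468.9 and 456.5 and CDH17 at 188.8 and 222.8 against 310.4 and 309.3. The marker that did not reach 10 reads in every library was CDX1, an intestinal transcription factor, at 21.9 and 18.9 normalized counts in untreated cells, 5.34 and 2.75 in Wdepl and 0 in both Hdepl libraries. In bulk samples of this kind, fewer cells of a type and less RNA per cell cannot be told apart. Levels per library are given as normalized counts on a scale common to all 6 libraries, while the fold changes against untreated come from the deposited table of each depletion. For these genes the log2 fold changes of both scales differed by at most 0.00902.

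The response to depletion was large across the whole transcriptome, and the counts below are to be read against it. After histidine depletion 19 of the 38 genes were called higher and 8 lower with limma, and 1 of the 28 tested was not called, where 39.1% of all 18288 genes tested were called higher, 38.2% lower and 77.3% in either direction. A log2 fold change of at least 1 in size was reached by 13 of them, 11 up and 2 down, against 32.5% of all genes tested. Of the 28, 4 (ITGA2B, ITGA9, ITGB2 and LAMA1) passed the filter on low values only through the Hdepl libraries and had to differ, and these were not tested in Wdepl. All 4 are among the 11 up. After tryptophan depletion 24 genes were tested, 15 were called higher and 6 lower, where 36.1% of all 17960 genes were called higher, 34.8% lower and 70.8% in either direction. Of the 6, ITGAM passed the filter only through the untreated libraries. Here 10 reached the 2-fold limit, 6 up and 4 down with ITGAM among them, against 20.5% of all genes. The median log2 fold change of the genes tested was 0.69 after histidine depletion and 0.50 after tryptophan depletion, where that of all genes tested was 0.010 and 0.013. The median of 0.69 includes ITGA2B, ITGA9, ITGB2 and LAMA1, whose rise the filter fixed, and they raise it. These medians are descriptions, and a shift of the genes as a set was not tested. Both comparisons share the untreated libraries. Between the depletions themselves, 16 genes were higher in Hdepl and 8 lower, with 4 of 28 not called, where 39.1% of all 18276 genes were higher, 37.8% lower and 77.0% in either direction. Of the 16, 4 (ITGA2B, ITGAM, ITGB2 and LAMA1) passed the filter only through the Hdepl libraries and had to differ. A log2 difference of at least 1 was reached by 13, these 4 among them, against 32.0% of all genes.

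**Figure D1:**
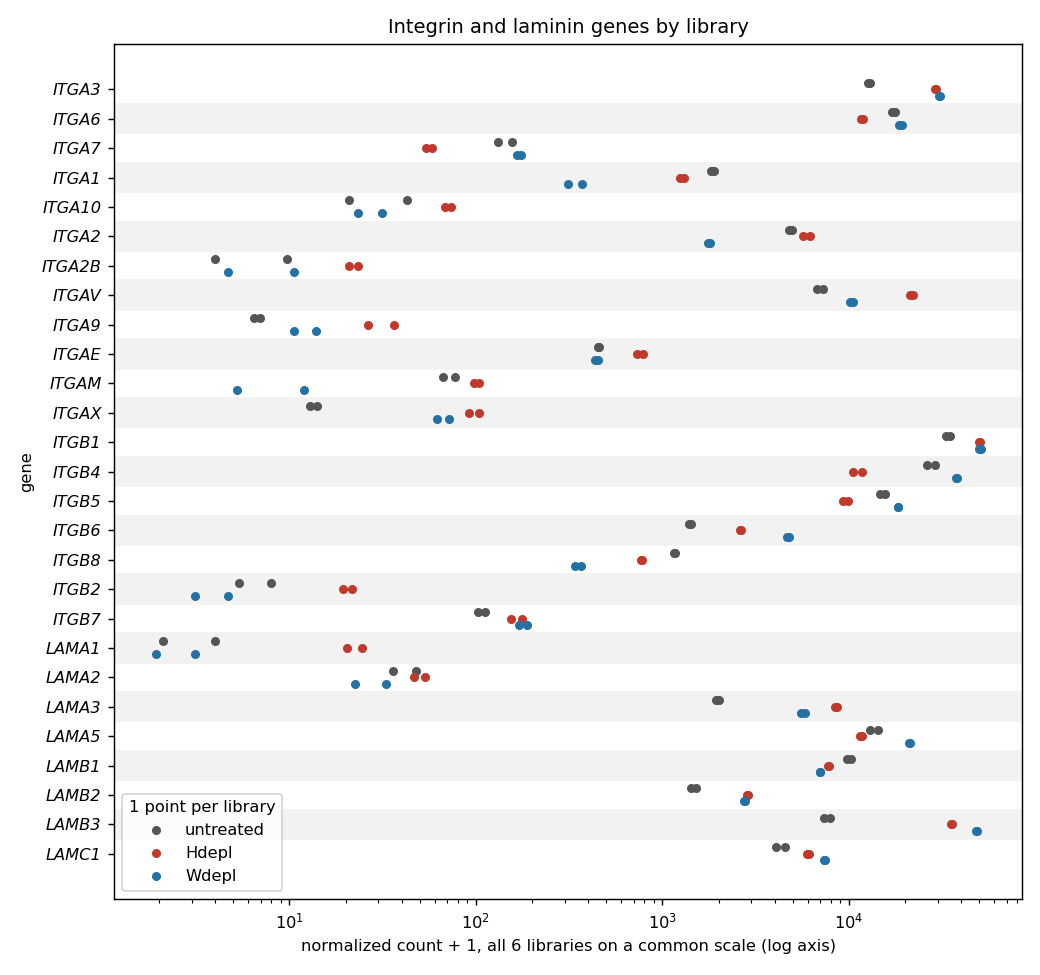
Normalized count plus 1 of 27 tested genes in each library, on a log axis, with 1 point per library and a colour per group, genes ordered by role. The 2 libraries of a group lie close together for genes with high counts and apart for genes near 10 counts, and LAMA3 and LAMB3 lie well to the right of the untreated points in both depletions.

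LAMA3 and LAMB3, whose products are chains of laminin-332, rose in both depletions. LAMB3 (chr1:209614870-209652425 in GRCh38), the beta chain, stood at 7357 and 7905 normalized counts in untreated cells, 35078 and 35644 in Hdepl and 47845 and 48867 in Wdepl. Both Wdepl libraries were above both Hdepl libraries, with no overlap of the groups. The log2 fold change was 2.22 (SE 0.0526, limma adjusted p = 2.93e-21), 4.67-fold, in Hdepl and 2.66 (SE 0.0491, limma adjusted p = 6.2e-92), 6.31-fold, in Wdepl, and the difference Hdepl minus Wdepl was -0.45 (SE 0.0421, limma adjusted p = 2.88e-08). Of all genes tested, 6.91% changed more in size than LAMB3 in Hdepl and 2.33% in Wdepl. LAMA3 (chr18:23689453-23956222), the alpha chain of laminin-332, stood at 1928 and 2018 in untreated cells, 8667 and 8386 in Hdepl and 5509 and 5803 in Wdepl. Unlike LAMB3, LAMA3 was highest in the Hdepl libraries. LAMA3 rose 4.35-fold (log2 2.12, SE 0.0516, limma adjusted p = 5.02e-21) in Hdepl and 2.85-fold (log2 1.51, SE 0.0493, limma adjusted p = 1.11e-61) in Wdepl, and was higher in Hdepl than in Wdepl by 0.59 (SE 0.0434, limma adjusted p = 1.11e-09).

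The sequence before the start of these genes is shown because both rose against untreated cells, in opposite order between the depletions. The letters TGANTCA, those of the site of the AP-1 transcription factors, were searched on both strands in the 250 bases before each start in the RefSeq promoter table (GRCh38.p14), which holds 33 windows of 26 of the 38 genes. Of these 33, 2 held them, 1 window of LAMA3 and 1 of 3 of LAMB3. This is close to the share over all windows, of which 2308 of 35116 (6.573%) held them. The LAMA3 window lies before the start of its shorter transcripts, and the stretch of it printed, chr18:23872835-23873017 on the plus strand, holds matches 125 and 69 bases before that start. The LAMB3 window lies before an inner start, and the stretch of it printed, chr1:209651375-209651501 on the minus strand, holds a match 67 bases before it. Capitals mark the matched letters, which are a description of the sequence and not a site shown to be used.
LAMA3: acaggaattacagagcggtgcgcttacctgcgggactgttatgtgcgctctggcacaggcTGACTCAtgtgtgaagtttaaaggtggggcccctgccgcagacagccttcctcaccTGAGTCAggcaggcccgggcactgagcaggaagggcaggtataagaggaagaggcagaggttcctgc
LAMB3: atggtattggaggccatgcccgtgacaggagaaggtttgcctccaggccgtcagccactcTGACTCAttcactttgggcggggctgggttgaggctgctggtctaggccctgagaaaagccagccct
ITGA3, ITGA7, ITGA9, ITGAD, ITGAL, ITGAX, ITGB2, ITGB3, ITGB4, LAMA1 and LAMC3 are among the genes not in that table.

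Other laminin chains moved less and not all one way. LAMA5, the alpha chain of the laminins of most mature epithelia, stood at 12947 and 14248 normalized counts in untreated cells, 11426 and 11818 in Hdepl and 20935 and 21199 in Wdepl. The groups did not overlap, with untreated cells in the middle. LAMA5 fell in Hdepl by 0.22 on the log2 scale (SE 0.0538, limma adjusted p = 0.000871), by 0.47 after quantile normalization, a call lost without the first Hdepl library (adjusted p = 0.0628), and rose in Wdepl by 0.63 (SE 0.0488, limma adjusted p = 1.99e-24). LAMB1, the beta chain of the widely made laminins, fell in both, with log2 fold changes of -0.35 (SE 0.0503, limma adjusted p = 8.08e-07), or -0.60 after quantile normalization, and -0.52 (SE 0.0466, limma adjusted p = 2.97e-20). LAMB2, its alternative in many mature basement membranes, rose in both, from 1514 and 1420 to 2891 and 2836 in Hdepl and 2737 and 2754 in Wdepl. The groups of LAMB2 in Hdepl and Wdepl did not overlap, but their log2 difference of 0.06 (95% interval -0.04 to 0.16, limma adjusted p = 0.25) was not called. LAMC1, the gamma chain of most laminins, rose by 0.51 (SE 0.0552, limma adjusted p = 1.02e-08) and 0.78 (SE 0.0478, limma adjusted p = 4.84e-33).

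LAMA1 and LAMA2 were low. LAMA1, an alpha chain of embryonic basement membranes, had 4 reads in the untreated libraries together, 45 in Hdepl and 3 in Wdepl, a ratio of 10.3 for Hdepl to untreated after scaling (exact 95% interval 3.77 to 39.6, counting error only). LAMA2, the alpha chain of muscle laminin, stood at 35.0 and 46.7 normalized counts in untreated cells, 52.4 and 45.8 in Hdepl and 21.3 and 32.0 in Wdepl. Its Hdepl and untreated groups overlapped and the difference was not called (adjusted p = 0.292, limma), while the fall by 0.62 in Wdepl (SE 0.283, limma adjusted p = 0.0441) was lost without the first Wdepl library (adjusted p = 0.391) or the second untreated library (adjusted p = 0.288). LAMA4, LAMB4 and LAMC3 were too low to test.

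Expressed per kilobase of exon, which allows levels of different genes to be set side by side, the make-up of the laminin transcripts shifted. LAMA3 made up 12.8% and 12.3% of the summed level of LAMA3 and LAMA5 in untreated cells, 42.8% and 41.2% in Hdepl and 20.6% and 21.3% in Wdepl. LAMB3 made up 68.0% and 69.1% of the summed level of the 3 tested beta chains in untreated cells, 90.0% and 90.2% in Hdepl and 93.0% and 93.1% in Wdepl. With the longest transcript as the length, the mean share of LAMB3 in untreated cells was 50.4%.

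**Figure D2:**
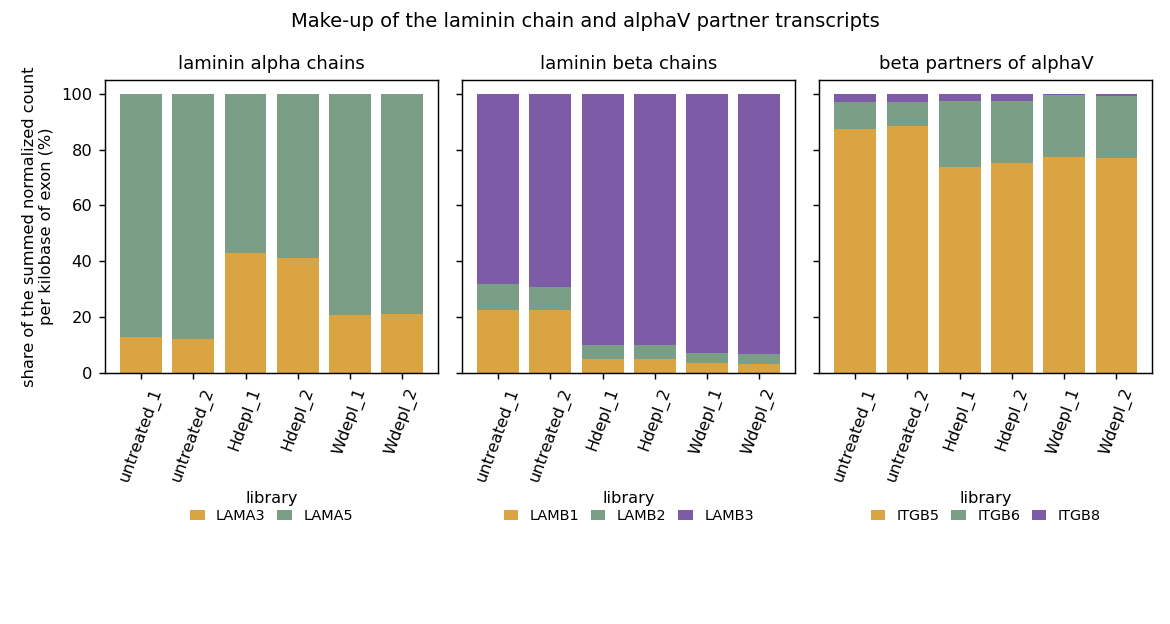
Stacked bars of the share, in percent, that the laminin alpha and beta chains and each beta partner of integrin alphaV takes of the summed normalized count per kilobase of exon, 1 bar per library. LAMB3 takes 68.0% and 69.1% of the beta chains in the untreated libraries and 90.0% to 93.1% after depletion.

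The receptors of laminin did not move as a group. ITGB4 (chr17:75721328-75757818), the integrin beta subunit found in hemidesmosomes, stood at 26318 and 28925 normalized counts in untreated cells, 10520 and 11805 in Hdepl and 38142 and 37597 in Wdepl. The Hdepl libraries were lowest and the Wdepl libraries highest, with no overlap. ITGB4 was 2.46-fold lower in Hdepl (log2 -1.30, SE 0.0593, limma adjusted p = 7.11e-16) and 1.37-fold higher in Wdepl (log2 0.45, SE 0.0527, limma adjusted p = 9.35e-14), or 0.27 after quantile normalization. Between the depletions it was 3.40-fold lower in Hdepl (log2 -1.76, SE 0.0532, limma adjusted p = 7.51e-15).

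ITGA6 (chr2:172427354-172506459), the alpha partner of ITGB4, fell in Hdepl too, from 17060 and 17704 to 11551 and 11842 normalized counts, and stood at 18603 and 19225 in Wdepl. The fall in Hdepl was 1.48-fold (log2 -0.56, SE 0.0504, limma adjusted p = 3.16e-10). The rise in Wdepl of 0.11 (SE 0.0486, limma adjusted p = 0.0293) was lost without either Wdepl library (adjusted p = 0.184 and 0.455) and after quantile normalization (log2 0.046, adjusted p = 0.147). ITGA7, a laminin-binding alpha subunit best known from muscle, stood at 155.2 and 130.3 in untreated cells, 56.9 and 52.9 in Hdepl and 165.4 and 173.1 in Wdepl. It fell in Hdepl by 1.35 on the log2 scale (SE 0.175, limma adjusted p = 1.91e-07), while its log2 value of 0.24 in Wdepl was not called (adjusted p = 0.11, limma), except without the first untreated library (adjusted p = 0.0249). Between the depletions ITGA7 was lower in Hdepl, with a log2 difference of -1.61 (SE 0.153, limma adjusted p = 3.87e-08).

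ITGA3 (chr17:50055968-50090481), whose product binds laminin-332 together with that of ITGB1, rose by a like amount in both depletions. It stood at 12667 and 12894 normalized counts in untreated cells, 29012 and 29269 in Hdepl and 30327 and 30866 in Wdepl. ITGA3 rose 2.29-fold (log2 1.20, SE 0.0509, limma adjusted p = 1.81e-16) and 2.38-fold (log2 1.25, SE 0.0489, limma adjusted p = 9.69e-53). The groups of the depletions did not overlap, but the log2 difference of -0.07 was not called (95% interval -0.15 to 0.01, limma adjusted p = 0.101). It was called with edgeR (adjusted p = 0.00865), with DESeq2 (adjusted p = 0.0378), after quantile normalization (adjusted p = 9.07e-05) and without either untreated library (adjusted p = 0.0193 and 0.0194). ITGB1 (chr10:32887273-33005792), the beta subunit shared by most matrix receptors, stood at 33015 and 34846 in untreated cells, 50661 and 49789 in Hdepl and 49931 and 51167 in Wdepl. Both depletions were above untreated and overlapped each other. ITGB1 rose by 0.58 (SE 0.0574, limma adjusted p = 2.21e-09) and 0.57 (SE 0.0545, limma adjusted p = 2.17e-18), with a log2 difference between them of -0.01 (95% interval -0.10 to 0.08, limma adjusted p = 0.852). After quantile normalization the rises were 0.26 and 0.37, and that difference was called (adjusted p = 0.00112), and it changed sign without the second library of either depletion. A pseudogene bears the name of ITGB1, and how reads mapping to several places were counted is not given in the sources used here.

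Of the 4 collagen-binding alpha subunits, ITGA1 and ITGA2 fell after tryptophan depletion, ITGA10 was not called and ITGA11 was not tested. ITGA1, the alpha subunit of a receptor for basement membrane collagen, stood at 1813 and 1884 normalized counts in untreated cells, 1248 and 1307 in Hdepl and 370.3 and 311.3 in Wdepl. The groups did not overlap. ITGA1 fell by 0.52 in Hdepl (SE 0.0595, limma adjusted p = 2.14e-08) and was 5.46-fold lower in Wdepl (log2 -2.45, SE 0.0706, limma adjusted p = 5.25e-68), where 3.03% of all genes tested changed more. The depletions differed by 1.91 (SE 0.0735, limma adjusted p = 1.8e-13). The gene PELO lies within it on the same strand, and 5.77% of its exon bases are shared with genes of that strand.

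ITGA2, the alpha subunit of the main fibrillar collagen receptor of epithelia, lies 30.1 kb from ITGA1 on chromosome 5. It stood at 4797 and 4970 normalized counts in untreated cells, 6215 and 5666 in Hdepl and 1753 and 1789 in Wdepl. The Hdepl libraries were above and the Wdepl libraries below the untreated ones. ITGA2 rose by 0.29 in Hdepl (SE 0.0538, limma adjusted p = 3.25e-05; 0.115 after quantile normalization) and was 2.77-fold lower in Wdepl (log2 -1.47, SE 0.0498, limma adjusted p = 1.03e-59). ITGA10, a collagen-binding alpha subunit best known from cartilage, stood at 41.5 and 19.9 in untreated cells, 72.3 and 67.2 in Hdepl and 22.4 and 30.2 in Wdepl. It rose in Hdepl by 1.25 (SE 0.274, limma adjusted p = 0.000231), by 0.74 without the second untreated library and by 1.76 without the first, and its Wdepl and untreated groups overlapped (adjusted p = 0.680, limma). In the direct comparison it was higher in Hdepl by 1.39 (SE 0.304, limma adjusted p = 0.00053).

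Among the alpha subunits ITGA1, ITGA2, ITGA3 and ITGA6, per kilobase of exon, ITGA6 made up 56.1% and 56.4% of the sum in untreated cells, 31.2% and 32.0% in Hdepl and 45.5% and 45.9% in Wdepl. ITGA3 made up 28.4% and 28.0%, 53.4% and 53.8%, and 50.5% and 50.2% of it in the same order. ITGA3 was thus above ITGA6 in both depletions and below it in untreated cells. The share of ITGA2 was 13.3% and 13.4% in untreated cells and 3.63% and 3.61% in Wdepl.

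ITGAV, the alpha subunit that binds RGD-containing ligands such as vitronectin and latent TGF-beta, stood at 6748 and 7286 normalized counts in untreated cells, 22113 and 21311 in Hdepl and 10153 and 10535 in Wdepl. The groups did not overlap and the Hdepl libraries were highest. ITGAV rose 3.12-fold in Hdepl (log2 1.64, SE 0.0527, limma adjusted p = 8.64e-19) and 1.47-fold in Wdepl (log2 0.55, SE 0.047, limma adjusted p = 9.05e-22). Its beta partners went different ways. ITGB6, the epithelial partner that activates latent TGF-beta, stood at 1413 and 1385 in untreated cells, 2639 and 2619 in Hdepl and 4646 and 4756 in Wdepl, and rose 1.89-fold (log2 0.92, SE 0.0556, limma adjusted p = 1.74e-13) and 3.34-fold (log2 1.74, SE 0.0508, limma adjusted p = 2.47e-67). Hdepl minus Wdepl, the log2 difference was 1.07 for ITGAV (SE 0.0434, limma adjusted p = 3.64e-13) and -0.84 for ITGB6 (SE 0.0433, limma adjusted p = 9.39e-12). Genes of the same strand share 16.7% of its exon bases.

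ITGB8, another partner that activates latent TGF-beta, stood at 1174 and 1156 normalized counts in untreated cells, 771.6 and 763.1 in Hdepl and 339.3 and 367.2 in Wdepl. It fell by 0.59 (SE 0.0664, limma adjusted p = 1.67e-08) and by 1.73 (SE 0.0749, limma adjusted p = 1.05e-47), which is 3.31-fold in Wdepl. ITGB5, the vitronectin-binding partner, stood at 14631 and 15616 in untreated cells, 9306 and 9874 in Hdepl and 18287 and 18246 in Wdepl. It fell in Hdepl by 0.65 (SE 0.0525, limma adjusted p = 4.68e-11) and rose in Wdepl by 0.27 (SE 0.0483, limma adjusted p = 4.34e-07), or 0.17 after quantile normalization. Per kilobase of exon, ITGB6 made up 9.52% and 8.82% of the sum of these 3 partners in untreated cells, 23.6% and 22.4% in Hdepl and 22.1% and 22.5% in Wdepl. ITGB5 was the highest partner in every library, at 73.8% to 88.4% of the sum. ITGB3, the partner known from platelets and endothelium, was too low to test, as were ITGA5 and ITGA8, the other RGD-binding alpha subunits of tissue cells.

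**Figure D3:**
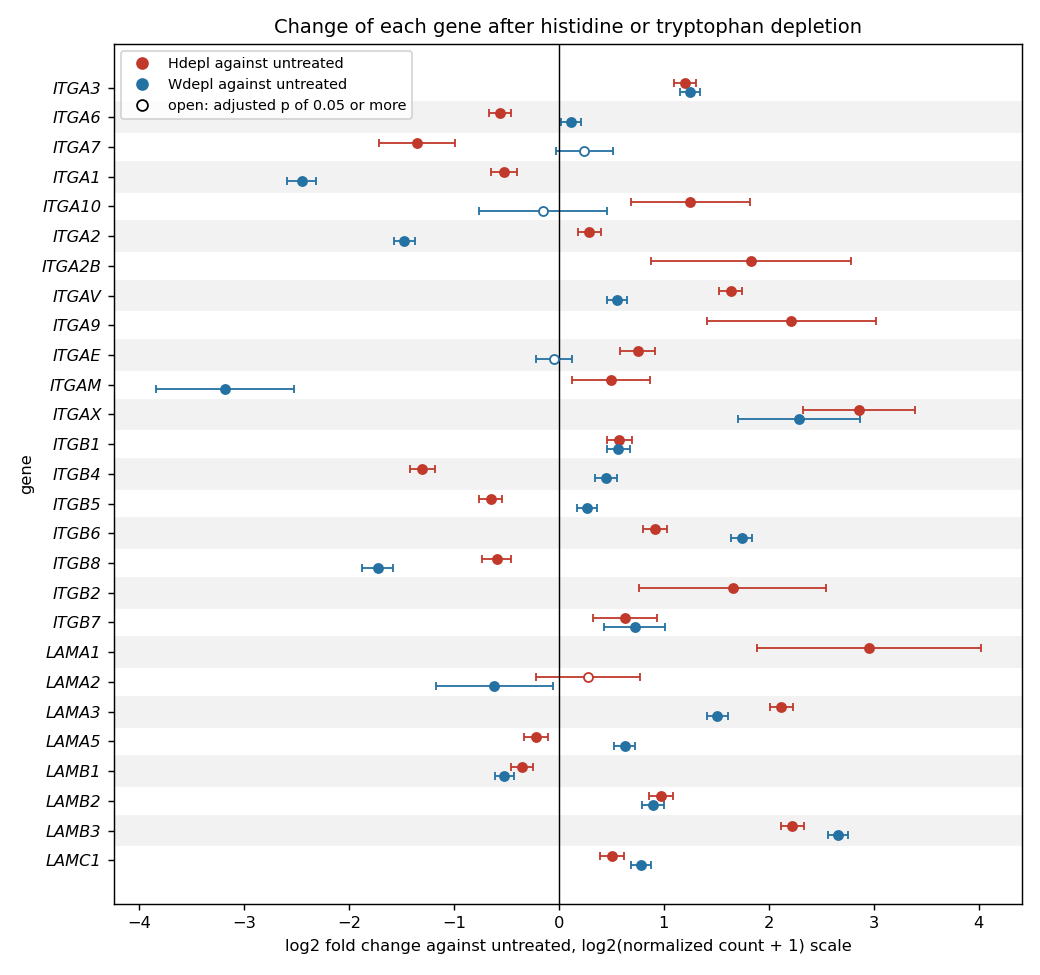
Log2 fold change of 27 tested genes against untreated cells after histidine (Hdepl) and tryptophan (Wdepl) depletion, with bars for the 95% interval of the limma fit and open symbols where the adjusted p was 0.05 or more. ITGB4, ITGB5 and LAMA5 lie on opposite sides of 0 in the depletions, while ITGA3, ITGB1 and LAMB2 lie at like values.

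The integrins of leukocytes and platelets were low. ITGAE, which pairs with ITGB7 and binds E-cadherin, was the highest of them, at 456.9 and 449.6 normalized counts in untreated cells, 785.1 and 731.6 in Hdepl and 449.2 and 434.0 in Wdepl. It rose by 0.75 in Hdepl (SE 0.0792, limma adjusted p = 6.14e-09) and was not called in Wdepl (log2 -0.04, adjusted p = 0.651, limma), with a log2 difference between the depletions of 0.78 (SE 0.0736, limma adjusted p = 3.54e-08). ITGB7 rose in both by 0.63 (SE 0.148, limma adjusted p = 0.000487) and 0.72 (SE 0.146, limma adjusted p = 4.73e-06), but 42.3% of its exon bases lie opposite genes of the other strand. Use of strand in the counting is not given in the sources used here. Of the tested genes, 6 had over 5% of their exon bases so placed. Besides ITGB7 these were LAMA1 (11.1%), ITGA9 (9.23%), ITGA1 (8.06%), ITGAE (7.65%) and ITGA6 (5.26%).

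ITGAX, an alpha subunit of dendritic cells and macrophages, stood at 13.1 and 11.9 normalized counts in untreated cells, 103.0 and 90.6 in Hdepl and 60.8 and 70.5 in Wdepl. Both depletions were above untreated, with log2 fold changes of 2.86 (SE 0.257, limma adjusted p = 3.17e-10) and 2.29 (SE 0.295, limma adjusted p = 5.52e-12). Hdepl was above Wdepl by 0.55 (limma adjusted p = 0.0341), a call lost without any single Hdepl or Wdepl library (adjusted p from 0.0541 to 0.179). ITGAM, which lies 22.2 kb from ITGAX on chromosome 16 and marks myeloid cells, went the other way in Wdepl. It stood at 65.6 and 76.6 in untreated cells, 103.0 and 96.7 in Hdepl and 4.27 and 10.99 in Wdepl. ITGAM had 16 reads in Wdepl against 137 in untreated cells, 9.05-fold lower after scaling (exact 95% interval 5.38 to 16.3, counting error only), and passed the filter on low values in Wdepl only through the untreated libraries. Its rise by 0.50 in Hdepl (SE 0.178, limma adjusted p = 0.0144) was lost without the first Hdepl library (adjusted p = 0.0783) or the first untreated library (adjusted p = 0.09), and with DESeq2 (adjusted p = 0.132). ITGB2, the beta partner of both, had 11 reads in untreated, 41 in Hdepl and 6 in Wdepl libraries.

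ITGA2B, the platelet alpha subunit, had 11, 44 and 13 reads in untreated, Hdepl and Wdepl libraries, and ITGA9, which binds tenascin, had 11, 64 and 23. Without the second Wdepl library the direct difference of ITGA2B was not called (adjusted p = 0.106), and without the first Hdepl library that of ITGA9 was not (adjusted p = 0.0521, limma). Of 10 leukocyte markers, PTPRC, CD3E, CD3D, MS4A1 and CD68 were at or under 3 reads in every library. The summed level of the 10 was 64890 to 69529 in untreated, 12489 to 14522 in Hdepl and 38420 to 38430 in Wdepl libraries, nearly all of it LYZ. CD14 stood at 103.8 and 119.4 in untreated, 50.6 and 63.1 in Hdepl and 379.9 and 367.2 in Wdepl libraries. Of 6 endothelial and platelet markers, CDH5 and KDR were at or under 3 reads in every library, and their summed level was 111 to 173, 114 to 134 and 155 to 174. Within it VWF stood at 7.65 and 3.98 in untreated and 42.5 and 40.7 in Hdepl libraries, and PECAM1 at 48.1 and 36.8 and at 8.13 and 9.16. Of 8 fibroblast markers, COL1A2, COL3A1, DCN, PDGFRA and THY1 were at or under 3 reads in every library, and the sums were 75.6 to 77.6, 35.2 to 43.8 and 59.8 to 72.3. The part of other cell types in these results was not tested. The 10 genes too low to test in any comparison, ITGA4, ITGA5, ITGA8, ITGA11, ITGAD, ITGAL, ITGB3, LAMA4, LAMB4 and LAMC3, had 0 to 9 reads per library.

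Per kilobase of exon, ITGB4 was the highest of all 38 genes in untreated cells, at 4085 ± 273 (SD, n = 2) normalized counts per kilobase. ITGA6 at 2602 ± 68.3, ITGB1 at 2330 ± 88.9 and ITGB5 at 2321 ± 107 (SD, n = 2 each) followed, and the last pair do not differ beyond their spread. LAMB3 came next at 1642 ± 83.4 (SD, n = 2) and with this length was the highest of all in both depletions, at 7609 ± 86.0 in Hdepl and 10406 ± 156 in Wdepl (SD, n = 2 each). ITGB4 was then at 1651 ± 134 in Hdepl, the 6th of the 38, and at 5601 ± 57.0 in Wdepl, the 2nd. With the longest transcript as the length, ITGB1 was the highest in untreated cells, at 6044 per kilobase against 4685 for ITGB4, and in Hdepl, at 8946 against 8214 for LAMB3.

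Genes that work with integrins and laminins were taken from 6 lists. Of the 4 other hemidesmosome genes, all rose in Hdepl (median log2 fold change 1.11), while in Wdepl 3 rose and CD151 fell. PLEC, the linker of ITGB4 to keratin, stood at 27240 and 32611 normalized counts in untreated cells, 76366 and 76394 in Hdepl and 57098 and 58026 in Wdepl, and rose by 1.37 (SE 0.0692, limma adjusted p = 5.42e-15) and 0.94 (SE 0.0565, limma adjusted p = 9.04e-34). DST, which encodes another keratin linker of the plaque, rose by 1.91 (SE 0.0549, limma adjusted p = 1.02e-19) and 0.16 (SE 0.0474, limma adjusted p = 0.00124). COL17A1, a transmembrane collagen, rose by 0.85 in Hdepl (SE 0.0498, limma adjusted p = 8.84e-14) and by 0.13 in Wdepl (SE 0.0470, limma adjusted p = 0.00956). In Hdepl PLEC, DST and COL17A1 were thus higher while ITGB4 and ITGA6 were lower. The counts are per gene and do not tell transcript forms apart.

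Of 28 adaptor and focal adhesion genes, 26 were tested, 13 rose and 12 fell in Hdepl (median 0.079), and 10 rose and 12 fell in Wdepl (median -0.12). TNS4, an adaptor that binds the tail of beta1, stood at 16359 and 16543 in untreated cells, 1729 and 1942 in Hdepl and 2439 and 2396 in Wdepl, and fell by 3.16 (SE 0.0545, limma adjusted p = 1.04e-23) and 2.77 (SE 0.0465, limma adjusted p = 2.99e-97). LIMS2, a partner of integrin-linked kinase, fell by 3.23 (SE 0.130, limma adjusted p = 6.44e-17) and 1.34 (SE 0.0942, limma adjusted p = 5.26e-28). FERMT2, a kindlin that activates integrins, rose by 3.91 in Hdepl (SE 0.253, limma adjusted p = 6.47e-13), from 13.1 and 7.96 to 168.1 and 166.9, and by 2.01 in Wdepl (SE 0.338, limma adjusted p = 5.83e-08). FERMT1, the kindlin of epithelia, stood at 17254 and 17757 in untreated cells, 3658 and 4076 in Hdepl and 7098 and 7265 in Wdepl, and fell by 2.17 (SE 0.0537, limma adjusted p = 6.49e-21) and 1.29 (SE 0.0469, limma adjusted p = 2.26e-56). VCL, which ties talin to actin, was higher in Hdepl than in Wdepl by 2.43 (SE 0.0410, limma adjusted p = 1.39e-17), with log2 fold changes of 1.88 and -0.57 against untreated. TLN2, a talin, fell by 2.44 in Hdepl (SE 0.204, limma adjusted p = 8.14e-11) and by 1.40 in Wdepl (SE 0.177, limma adjusted p = 2.6e-12). The talin TLN1 rose, from 12954 and 14121 in untreated cells to 29358 and 30184 in Hdepl and 15828 and 15864 in Wdepl, by 1.15 (SE 0.0546, limma adjusted p = 1.62e-15) and 0.22 (SE 0.0481, limma adjusted p = 2.03e-05). FERMT1 and TLN1 were named after their values were seen.

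Of 12 genes for integrin ligands other than laminins, 7 were tested in Hdepl, with 3 up and 2 down, and 8 in Wdepl, with 4 up and 1 down. Of those up in Wdepl, SPP1 passed the filter only through the Wdepl libraries and had to differ. TNC, the matrix protein tenascin-C, stood at 205.5 and 250.6 in untreated cells, 5290 and 5052 in Hdepl and 1350 and 1493 in Wdepl, and rose by 4.51 (SE 0.0774, limma adjusted p = 9.9e-24) and 2.63 (SE 0.0805, limma adjusted p = 5.92e-65). ICAM1, the ligand of leukocyte integrins, rose by 2.54 (SE 0.0749, limma adjusted p = 1.65e-19) and 1.25 (SE 0.0854, limma adjusted p = 8.65e-29). CDH1, E-cadherin and the ligand of ITGAE, rose by 0.49 in Hdepl (SE 0.0537, limma adjusted p = 1.33e-08) and by 0.71 in Wdepl (SE 0.0513, limma adjusted p = 7.38e-27). NPNT, the ligand nephronectin, fell by 1.23 in Hdepl (SE 0.0545, limma adjusted p = 3.85e-16) and was not called in Wdepl (log2 0.02, limma adjusted p = 0.703).

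Of 10 other basement membrane genes, 6 were tested in Hdepl, with 2 up and 3 down, and 5 in Wdepl, with 3 up and 1 down. Both called up in Hdepl, COL4A4 and NID2, passed the filter on low values only through the Hdepl libraries and had to differ. COL4A1, a type IV collagen chain, stood at 21.9 and 25.9 in untreated cells, 18.1 and 8.14 in Hdepl and 124.8 and 126.4 in Wdepl. It rose in Wdepl by 2.34 (SE 0.221, limma adjusted p = 7.28e-19), as did its partner COL4A2 by 0.48 (SE 0.0610, limma adjusted p = 4.05e-12) and AGRN, agrin, by 0.77 (SE 0.0543, limma adjusted p = 5.95e-28). HSPG2, perlecan, fell in Hdepl by 0.59 (SE 0.0674, limma adjusted p = 2.31e-08), COL4A2 by 0.16 (SE 0.0705, limma adjusted p = 0.0446) and COL4A1 by 0.90 (SE 0.382, limma adjusted p = 0.0362), while AGRN was not called (log2 -0.07, limma adjusted p = 0.319). HSPG2 fell in Wdepl as well, by 0.18 (SE 0.0513, limma adjusted p = 0.000808).

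Of the 3 laminin receptors that are not integrins, 1 rose and 1 fell in Hdepl, and all 3 fell in Wdepl. BCAM, which binds LAMA5-containing laminins, stood at 10894 and 11730 in untreated cells, 21804 and 22414 in Hdepl and 6532 and 6846 in Wdepl. It rose by 0.98 in Hdepl (SE 0.0527, limma adjusted p = 1.88e-14) and fell by 0.76 in Wdepl (SE 0.0471, limma adjusted p = 9.04e-33), in each case against the direction of LAMA5. DAG1, dystroglycan, fell by 0.21 (SE 0.0503, limma adjusted p = 0.000477) and 0.29 (SE 0.0464, limma adjusted p = 1.09e-08), and RPSA, the laminin receptor that is also a ribosomal protein, fell by 0.15 in Wdepl (SE 0.0574, limma adjusted p = 0.0124) and was not called in Hdepl (log2 -0.03, limma adjusted p = 0.686).

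Of 8 membrane proteins that associate with integrins, 4 rose and 4 fell in Hdepl, and 2 rose and 6 fell in Wdepl. CD44, the hyaluronan receptor, stood at 24489 and 24996 in untreated cells, 3414 and 3810 in Hdepl and 10427 and 10018 in Wdepl, and fell by 2.77 (SE 0.0538, limma adjusted p = 8.32e-23) and 1.28 (SE 0.0479, limma adjusted p = 6.38e-55). The tetraspanins CD81 and CD82 fell in Hdepl by 1.01 (SE 0.0521, limma adjusted p = 6.87e-15) and 0.99 (SE 0.0563, limma adjusted p = 5.03e-14). In Wdepl, CD82 rose by 0.39 (SE 0.0466, limma adjusted p = 1.36e-13) and CD81 fell by 0.21 (SE 0.0470, limma adjusted p = 5.01e-05). In Wdepl, CD47, which associates with alphaV integrins, fell by 0.88 (SE 0.0513, limma adjusted p = 4.56e-35) and BSG, basigin, by 0.57 (SE 0.0484, limma adjusted p = 8.13e-22), while in Hdepl CD47 fell by 0.16 (SE 0.0531, limma adjusted p = 0.00756) and BSG rose by 0.39 (SE 0.0546, limma adjusted p = 6.74e-07). TSPAN4, a tetraspanin, was higher in Hdepl than in Wdepl by 1.39 (SE 0.0630, limma adjusted p = 1.63e-12), with log2 fold changes of 0.98 and -0.43 against untreated.

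**Figure D4:**
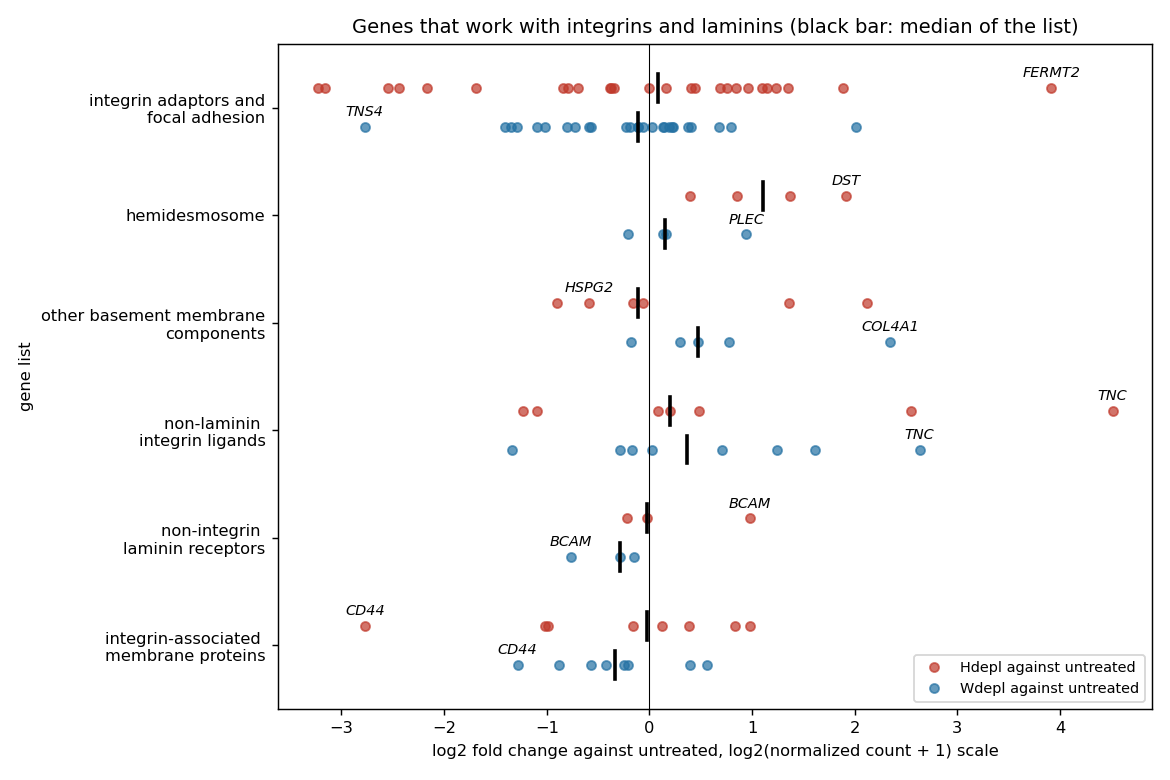
Log2 fold change against untreated of the tested genes in 6 lists that work with integrins and laminins, 1 point per gene and depletion, with a black bar at the median of each list and the named gene of largest change labelled. The hemidesmosome genes lie right of 0 in Hdepl, and the adaptors spread on both sides, with medians of 0.079 and -0.12.

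The coding sequences of the 38 genes are not rich in the depleted residues. The median gene among them had 2.30% histidine and 0.881% tryptophan codons, against 2.45% and 1.15% over 19423 coding sequences. LAMB3 had 1.79% histidine codons, while LAMB2 had 4.06%, at the 90.1 percentile of all genes. Across the 28 genes tested in Hdepl, Spearman's rho between the log2 fold change and the share of histidine codons was 0.041, and across the 24 tested in Wdepl that with the share of tryptophan codons was -0.016. These are descriptions across genes, which share libraries and are not independent replicates.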

How the data were processed

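Per the labels and the study's methods, polyadenylated RNA of 6 samples was sequenced with a stranded protocol and adapters with molecular identifiers. The authors aligned reads with STAR 2.7.10a to GRCh38, used HTSeq 2.0.5 with an earlier GENCODE release to count exonic reads per gene, and deposited 1 table per depletion of counts divided by DESeq2 size factors (a normalized count signal), with the same untreated libraries in both. Use of the identifiers, strand and multi-mapped reads is not given in the sources used here. Normalized counts were whole multiples of 1 step per library for 100% of the values (tolerance 0.01), which gave whole reads.

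The integrin and laminin genes and the lists were chosen with earlier results of these data known. GENCODE release 44 gave names for 60357 of 60676 genes. Genes averaging 10 or more normalized counts across the libraries of a comparison entered a two-sided limma fit (version 3.58.1, R 4.3.3, with a mean-variance trend) of log2(normalized count + 1), with Benjamini-Hochberg adjustment over all genes tested and a threshold of 0.05. On this scale the change of low genes is understated. Hdepl and Wdepl were tested against untreated within their own tables, and against each other on the reads of all 6 libraries brought to 1 scale with median-of-ratios size factors. edgeR 4.0.16 on the reads called 7169 genes higher and 7111 lower in Hdepl, and 6490 and 6349 in Wdepl. DESeq2 1.42.0, other pseudocounts, filters and scalings, a replicate block and each library left out were alternatives, and limma and edgeR were tested on simulated counts. Every tested integrin and laminin gene was to be named, but 1 of them is counted and not reported on its own here, and of each list up to 3 called genes per comparison with the largest change, a mean of at least 100 in the higher group and no overlap. Python 3.11.15, pandas 2.3.3 and matplotlib 3.10.9 made the tables and plots.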

Additional observations from a re-analysis of the deposited data

Results flagged for a closer look

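Of the 20 genes called in both depletions, 6 were called in opposite directions against the shared untreated libraries. For these 6 the direct difference between the depletions was also past the limma threshold. The like share over all genes was not determined, so whether 6 of 20 is unusual cannot be told. The log2 difference, Hdepl minus Wdepl, was 1.74 for ITGA2 (limma adjusted p = 2.19e-15) and 3.66 for ITGAM, both higher in Hdepl. ITGAM passed the filter on low values only through the groups in which it was high, in Wdepl against untreated and between the depletions, and had to differ, so this value is a description. The difference was -0.693 for ITGA6 (limma adjusted p = 3.27e-11), -1.76 for ITGB4 (limma adjusted p = 7.51e-15), -0.93 for ITGB5 (limma adjusted p = 1.95e-12) and -0.858 for LAMA5 (limma adjusted p = 1.1e-11), all higher in Wdepl. Of these, the small rise of ITGA6 in Wdepl, the rise of ITGAM in Hdepl and the fall of LAMA5 in Hdepl were lost when 1 library was left out.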

How the results depend on the processing

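With 2 libraries per group, the spread rests on few values, and the depth limits the genes near 10 counts. With each library left out, the genes called numbered 23 to 27 of 38 in Hdepl, 19 to 22 in Wdepl and 19 to 25 between the depletions, against 27, 21 and 24. A limit of 1 on the size of the log2 fold change left 13 called in Hdepl (11 higher, 2 lower), 10 in Wdepl (6 higher) and 13 between the depletions (2 lower), and a mean of at least 50 left 10 higher between the depletions. ITGA10 in Wdepl, not called, ranged from -0.66 to 0.36 with each library left out (0.065 without Wdepl replicate 1, 0.36 without untreated replicate 1) and ITGAE in Wdepl to 0.071 after quantile normalization. ITGB1 between the depletions ranged from -0.027 to 0.0084 and turned to 0.0033 and 0.0084 without Hdepl replicate 2 and Wdepl replicate 2. Calls of LAMA2 in Wdepl, LAMB1 between the depletions (quantile normalization, adjusted p = 0.736, limma) and ITGA10 and LAMA5 in Hdepl (limma without the trend, adjusted p = 0.0531 and 0.0733) were lost, and the cause was not tested. With a replicate block the counts were 27, 21 and 24. Libraries with the same number did not deviate together (correlations 0.059, 0.015 and -0.055 over 16170 genes). No scaling moved the median of all genes by over 0.1.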
